A study of Mus musculus with 4 samples.

Results

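The cytosolic ribosomal protein genes are the nuclear genes for the protein components of the 80S ribosome. They were taken as every protein-coding row of the deposited mouse count table whose symbol is Rpl or Rps followed by a number, or Rplp0, Rplp1, Rplp2 or Rpsa. Rows of Rps6k kinases (10) and pseudogenes (8) were left out, with Rpl31-ps12 and Rpl34-ps1, annotated as protein-coding, counted as pseudogenes by their symbol. This gave 89 of 24415 rows, on 19 chromosomes: 54 genes of the large subunit, 34 of the small subunit, and Rps19bp1, which the symbol rule takes although it encodes an Rps19-binding protein and not a subunit of the ribosome. Among them, 77 are canonical ribosomal protein genes (46 large, 31 small) and 11 are paralogs or retrogenes, that is, diverged or retrotransposed copies of a canonical gene. Fau and Rack1 also encode ribosomal proteins but fall outside the symbol rule, and are described beside the members.

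RNA sequencing had been carried out on bone marrow cells enriched with beads against CD117, the KIT receptor carried by hematopoietic stem and progenitor cells. The inducible HIF-1α group (2 libraries) came from mice in which a constitutively active HIF-1α is switched on; HIF-1α is the subunit of the hypoxia-inducible factor HIF-1 whose stability depends on oxygen. The wild type group (2 libraries) came from control mice. Both groups share the strain background given as C57BL/6, 129X1/SvJ, and the series title names myelodysplastic syndrome (MDS) as the subject. The age of the mice, the inducing agent and its duration, the promoter or Cre that drives the allele, and any pooling of mice were not given in the sources used here. GEO's labels do not state that libraries of a genotype stem from different mice, so the p-values below measure only the spread between these 4 libraries, and that spread may be technical.

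A ribosome joins a large subunit, which holds the peptidyl transferase centre and the exit tunnel, to a small subunit, which decodes the mRNA. Ribosomal proteins are made in the cytoplasm, imported into the nucleolus and assembled onto ribosomal RNA, and an imbalance between them can leave free Rpl5 and Rpl11, which bind Mdm2 and stabilise p53. Their mRNAs begin with a terminal oligopyrimidine (TOP) tract, a C followed by a run of C and T, through which mTORC1 and LARP1 control their translation. In blood formation the family is known for Diamond-Blackfan anaemia, caused by inherited loss of a single copy of a ribosomal protein gene, and for RPS14, whose loss is linked to anaemia in a form of human MDS.

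The deposited values were raw counts, 24852965 and 26373177 in total in the inducible HIF-1α libraries and 27539149 and 22221798 in the wild-type libraries. All levels below are CPM, that is, counts scaled to library size (here the TMM library size), given for replicate 1 and then replicate 2 of each genotype. Hif1a itself was at 155 and 113 CPM in the inducible HIF-1α libraries and 179 and 168 CPM in the wild-type libraries (log2 fold change -0.38 ± 0.21 SE, adjusted p = 0.426). Whether the induced transcript adds to these counts was not given in the sources used here. Markers of the labelled cell type were present in all 4 libraries. Kit, for example, was at 348 and 390 CPM in the inducible HIF-1α libraries and 268 and 242 CPM in the wild-type libraries. The biological coefficient of variation was 33.4% within the inducible HIF-1α pair and 15.1% within the wild-type pair.

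Markers of other blood cells also moved with genotype. The summed level of 9 B cell markers was 14.8 and 5.31 CPM in the inducible HIF-1α libraries, against 530.5 and 500.6 CPM in the wild-type libraries, with 8 of the 9 called lower. The defining B cell factor Pax5 had 0 counts in both inducible HIF-1α libraries. A sum over 9 macrophage markers was 54.2 and 31.2 CPM in the inducible HIF-1α libraries and 219.7 and 225.5 CPM in the wild-type libraries (7 called lower). For 7 mature neutrophil markers the sums were 5435 and 2321 CPM in the inducible HIF-1α libraries and 8526 and 6704 CPM in the wild-type libraries (3 called lower), and for 7 T and NK cell markers 64.5 and 66.5 CPM in the inducible HIF-1α libraries and 123.5 and 125.6 CPM in the wild-type libraries (2 called lower). Erythroid markers (11 genes) summed to 4882 and 9116 CPM in the inducible HIF-1α libraries and 10210 and 10370 CPM in the wild-type libraries, with 1 called higher and 1 lower. The 8 HSPC markers summed to 648.6 and 535.5 CPM in the inducible HIF-1α libraries and 504.7 and 502.9 CPM in the wild-type libraries, with none called. In bulk samples, fewer cells of a type and less RNA per cell cannot be told apart. The part of these cell types in the levels of ribosomal protein genes was not tested.

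Sequences around the annotated transcription start are shown for members at both ends of the fold change range, to show where pyrimidine runs of the kind found in TOP tracts lie and where the window holds none. Each line below gives 20 bases before and 20 bases from the annotated start, read on the gene's strand, with the longest run of at least 6 pyrimidines that begins with C in capitals (RefSeq, GRCm38.p6). The first 4 lines are genes with fold changes among the 6 highest and the others among the 6 lowest of the family, each at its first listed start.
Rps27l (chr9:66946066-66946105, plus strand): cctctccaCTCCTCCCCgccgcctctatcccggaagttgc
Rpl32l (chr10:20208419-20208458, plus strand): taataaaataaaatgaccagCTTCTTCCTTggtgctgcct
Rpl6 (chr5:121204481-121204520, plus strand): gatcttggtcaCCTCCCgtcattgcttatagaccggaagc
Rps24 (chr14:24490658-24490697, plus strand): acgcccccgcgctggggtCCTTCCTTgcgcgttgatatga
Rpl27a (chr7:109519175-109519214, plus strand): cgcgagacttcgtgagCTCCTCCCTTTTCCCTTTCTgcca
Rps12 (chr10:23787190-23787229, minus strand): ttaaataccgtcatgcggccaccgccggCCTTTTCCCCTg
Rpl41 (chr10:128549149-128549188, minus strand): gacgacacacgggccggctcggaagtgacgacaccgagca
Rpl37 (chr15:5116593-5116632, plus strand): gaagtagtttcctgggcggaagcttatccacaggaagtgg
Rpl23 (chr11:97782420-97782459, minus strand): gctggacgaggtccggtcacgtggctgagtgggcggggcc

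The longest run among these was 20 bases, in Rpl27a, which had the lowest fold change of the family, and Rpl41, Rpl37 and Rpl23, with no run in the window shown, also lay at that end. The marked run spans the annotated start in Rps24 and Rpl27a and begins at it in Rpl32l, while it ends before the start in Rps27l and Rpl6 and begins after it in Rps12. Across 80 RefSeq promoters of 68 members, 57.5% held such a run on the gene's strand within 20 bases of the annotated start, against 29.4% of all 32851 promoters. Other motifs were searched on both strands from 250 bases before to 50 bases after the start. CGGAAG, the core bound by ETS family factors, was in 57.5% of member promoters and 16.9% of all promoters. ACGTG and GCGTG, the letter sequences of the hypoxia response element core, were in 31.3% and 56.3% of member promoters, against 19.6% and 32.4% of all promoters. The E-box CACGTG, which contains ACGTG and is bound by Myc, was in 10% of member promoters and 7.15% of all promoters. A match in these windows is a description of the letters and not of binding, and an annotated start need not be the start used in these cells.

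As a family, ribosomal protein transcripts made up a larger share of the counts in both inducible HIF-1α libraries than in either wild-type library. The members held 1.53% and 1.86% of the counts in the inducible HIF-1α libraries (Wilson 95% intervals 1.529 to 1.538% and 1.859 to 1.87%), against 1.31% and 1.19% in the wild-type libraries (1.31 to 1.319% and 1.188 to 1.197%). The intervals cover counting error only. The groups did not overlap, with means of 1.7 ± 0.234% in the inducible HIF-1α libraries and 1.25 ± 0.0866% in the wild-type libraries (SD, n = 2 each), a ratio of 1.36. A two-sided exact permutation test gave p = 0.333, which is the smallest that 2 libraries against 2 can give, so this design cannot reach 0.05 for a summed value.

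**Figure D1:**
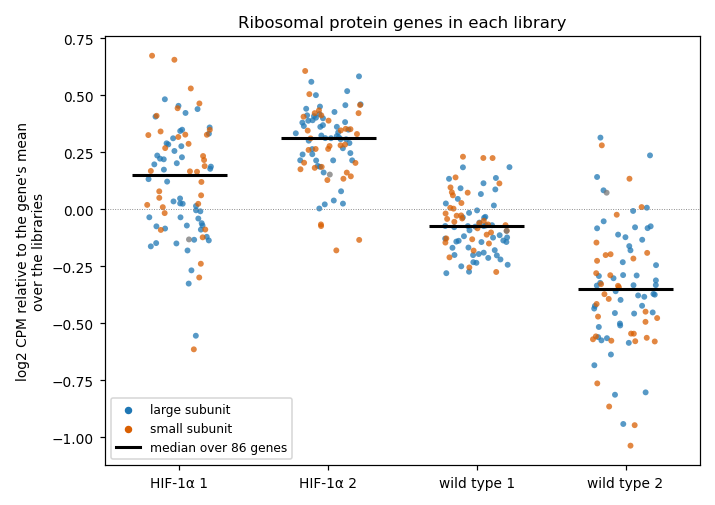
Level of each of the 86 tested ribosomal protein genes (log2 CPM, vertical axis) in each of the 4 libraries, relative to the gene's own mean over the libraries; points are genes, coloured by subunit (Rps19bp1 in grey), and black bars are medians. The medians were 0.15 and 0.31 in the inducible HIF-1α libraries and -0.07 and -0.35 in the wild-type libraries, with a wide spread of single genes in every library.

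Gene by gene, 86 of the 89 members had enough counts to be tested. Fold changes were above 0 in 81 of the 86 and below 0 in 5, and their median was 0.40 on the log2 scale (1.32-fold), while 50.1% of all 14043 tested genes were above 0 and the median over all genes was 0.00. Both inducible HIF-1α libraries lay above both wild-type libraries for 56 members, against a background of 24.6% of all tested genes, and both lay below for 0 members, against 28.2%. The other 30 members overlapped between the genotypes. None of the members passed the edgeR quasi-likelihood test at an adjusted p under 0.05 in either direction, with backgrounds of 0.114% called higher and 1% called lower, and the smallest adjusted p was 0.119. At an unadjusted p under 0.05 there were 29 members, all higher in the inducible HIF-1α libraries, against 5.44% of all tested genes. DESeq2 called 4 members higher, among them Rpl10a, Rpl3 and Rpl6, and 0 lower, against backgrounds of 1.22% and 5.69%. Without the filter on low counts, edgeR called 1 member higher, Rpl10a, and 0 lower, against backgrounds of 0.672% and 3.55%.

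The size of the difference depended on which libraries were set against each other. On the log2 scale, the median member difference was 0.18 for inducible HIF-1α replicate 1 minus wild-type replicate 1 (66 members above 0, 20 below), 0.51 for inducible HIF-1α replicate 1 minus wild-type replicate 2 (71 above, 15 below), 0.39 for inducible HIF-1α replicate 2 minus wild-type replicate 1 (78 above, 8 below) and 0.66 for inducible HIF-1α replicate 2 minus wild-type replicate 2 (84 above, 2 below). All 4 medians were above 0. Leaving out a library, with the lone remaining library assumed to vary like the pair, changed the number of calls. The fits that leave out an inducible HIF-1α library share both wild-type libraries. Each takes its spread from the wild-type pair alone (biological coefficient of variation 15.1%, against 33.4% in the inducible HIF-1α pair). Calls shared by these fits are therefore not independent, and no background over all tested genes is given for them. Without inducible HIF-1α replicate 1, 53 members were called higher and 0 lower (backgrounds 12.4% and 19.7%). Without inducible HIF-1α replicate 2, 28 were called higher and 2 lower (backgrounds 3.84% and 7.64%), and 24 members were called higher in both of these fits. Leaving out wild-type replicate 1 or wild-type replicate 2 gave 0 calls among the members in either direction (backgrounds 0.00% higher and 0.0138% lower in the first of these fits, and 0.00% each way in the second).

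**Figure D2:**
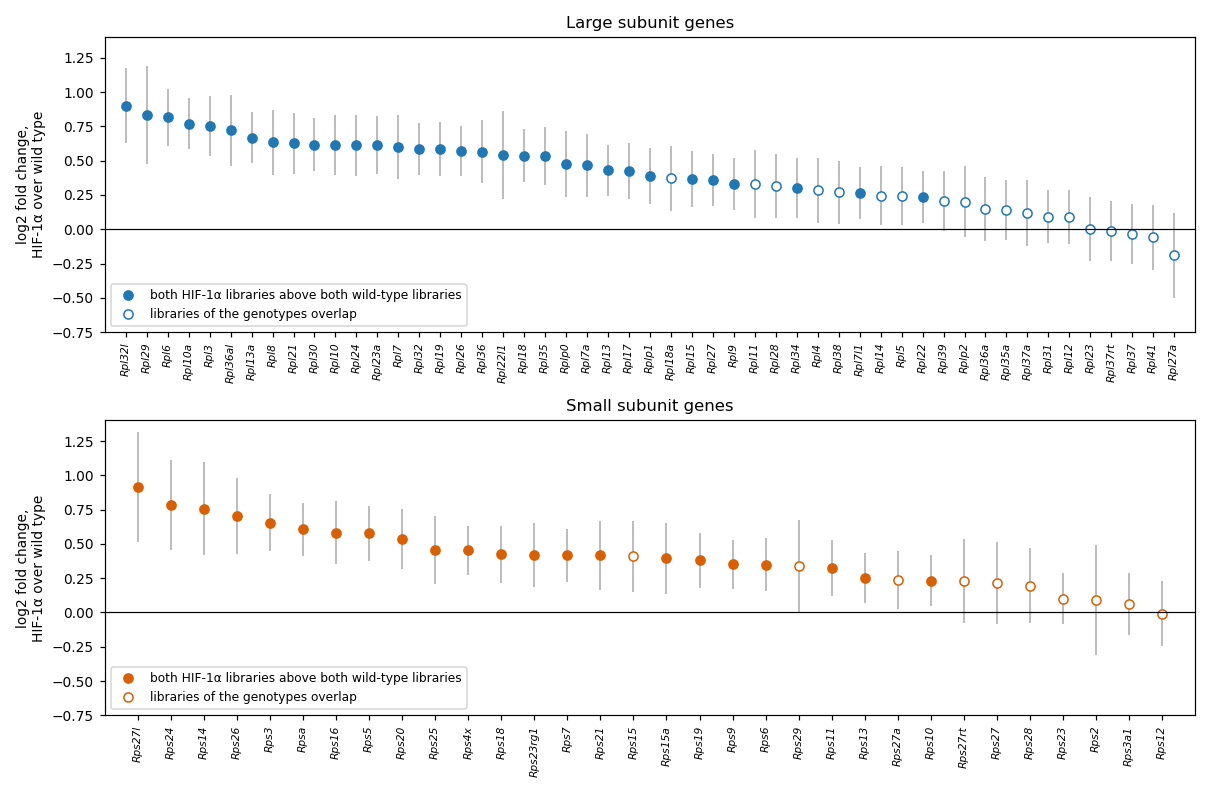
Log2 fold change, inducible HIF-1α over wild type, of tested large subunit genes (top) and small subunit genes (bottom), ordered by size, with bars of 1 SE from edgeR. Filled points mark genes whose inducible HIF-1α libraries both lay above both wild-type libraries (32 of 51 large and 22 of 32 small subunit genes drawn); the fold changes lie between 0.92 for Rps27l and -0.19 for Rpl27a, and Rps19bp1 is not drawn.

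Members with large fold changes were Rps27l, Rpl32l, Rpl29, Rpl6 and Rps24, none of which passed the adjusted threshold. Rps27l (GeneID 67941; chr9:66944624-66949522), a diverged copy of Rps27 that p53 induces in human cells, was at 13.0 and 10.5 CPM in the inducible HIF-1α libraries, against 8.40 and 4.02 CPM in the wild-type libraries (log2 fold change 0.92 ± 0.40 SE, adjusted p = 0.314). The retrogene Rpl32l (GeneID 621697; chr10:20208439-20209030) was at 34.3 and 33.7 CPM in the inducible HIF-1α libraries and 22.3 and 14.1 CPM in the wild-type libraries (0.90 ± 0.27, adjusted p = 0.183). Rpl29 (GeneID 19944; chr9:106428889-106431568), a large subunit protein, was at 15.4 and 15.5 CPM in the inducible HIF-1α libraries and 11.5 and 5.86 CPM in the wild-type libraries (0.83 ± 0.36, adjusted p = 0.306). For these 3 genes the wild-type libraries differed from each other more than the inducible HIF-1α libraries did.

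Rpl6 (GeneID 19988; chr5:121204501-121209241), of the large subunit, was at 144.3 and 142.9 CPM in the inducible HIF-1α libraries and 94.0 and 69.2 CPM in the wild-type libraries (0.82 ± 0.21, adjusted p = 0.136). Rpl10a (GeneID 19896; chr17:28328471-28331033), the protein of the L1 stalk through which used tRNA leaves the ribosome, had the smallest adjusted p of the family. It was at 159 and 171.5 CPM in the inducible HIF-1α libraries and 104.5 and 89.3 CPM in the wild-type libraries (0.77 ± 0.19, adjusted p = 0.119). In Rpl6 and Rpl10a both inducible HIF-1α libraries lay above both wild-type libraries. Rpl3, which lies near the peptidyl transferase centre, was at 591 and 764.9 CPM in the inducible HIF-1α libraries and 442 and 363 CPM in the wild-type libraries (0.75 ± 0.22, adjusted p = 0.17).

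At the other end of the range, Rpl27a, Rpl41, Rpl37, Rpl37rt, Rps12 and Rpl23 had fold changes at or just below 0, and all 6 overlapped between the genotypes. Rpl27a (GeneID 26451; chr7:109519195-109522369) was at 153.7 and 280.2 CPM in the inducible HIF-1α libraries, against 214.5 and 280.7 CPM in the wild-type libraries (-0.19 ± 0.31, adjusted p = 0.794). Rpl41, the smallest protein of the ribosome, was at 77.6 and 114.9 CPM in the inducible HIF-1α libraries and 93.4 and 107.3 CPM in the wild-type libraries (-0.06 ± 0.24). The values of Rps12 were 87.5 and 129.3 CPM in the inducible HIF-1α libraries and 100.3 and 118.1 CPM in the wild-type libraries (-0.01 ± 0.24). In each of these genes replicate 2 lay above replicate 1 in both genotypes. The values of Rpl23, a protein that can bind Mdm2, showed the same order, with 95.3 and 118.2 CPM in the inducible HIF-1α libraries and 88.9 and 124.5 CPM in the wild-type libraries (0.00 ± 0.23). Rpl37 and its retrogene Rpl37rt, whose rows may hold the same reads, stayed between 19.4 and 24.5 CPM in all 4 libraries.

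By subunit, the distributions were alike in the middle. The median log2 fold change was 0.39 over 51 large subunit genes, with 47 above 0 and 32 not overlapping, and 0.41 over 34 small subunit genes, with 33 above 0 and 24 not overlapping (backgrounds 50.1% above 0 and 24.6% not overlapping in this direction). The summed counts of the large subunit were 1.38 and 1.41 times those of the small subunit in the inducible HIF-1α libraries, against 1.37 and 1.36 times in the wild-type libraries. The means of this ratio were 1.39 ± 0.0223 in the inducible HIF-1α libraries and 1.36 ± 0.00753 in the wild-type libraries (SD, n = 2 each; two-sided exact permutation p = 0.333). This difference rests on the most abundant genes. Without the 5 most abundant members, Rps2, Rpl5, Rplp0, Rpl4 and Rps3a1, the ratio was 1.28 and 1.43 in the inducible HIF-1α libraries and 1.35 and 1.46 in the wild-type libraries (exact permutation p = 0.667), with the mean lower in the inducible HIF-1α libraries.

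Those 5 genes held 21.5% and 27.4% of the member counts in the inducible HIF-1α libraries and 24.5% and 30.5% in the wild-type libraries. Rps2 (GeneID 16898; chr17:24718121-24721927), a small subunit protein near the mRNA entry site, was at 589.5 and 1374 CPM in the inducible HIF-1α libraries, against 745.8 and 1096 CPM in the wild-type libraries (0.09 ± 0.40, adjusted p = 0.928). Its call changed direction with the library left out. With inducible HIF-1α replicate 1 left out it was called higher (log2 fold change 0.58, adjusted p = 0.00166). Leaving out inducible HIF-1α replicate 2 instead gave a call in the lower direction (-0.61, adjusted p = 0.00567). Rpl27a was called lower only in the fit without inducible HIF-1α replicate 2, out of all the fits run (-0.65, adjusted p = 0.00573).

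Rpl5, which carries 5S ribosomal RNA into the large subunit, was at 836.1 and 1082 CPM in the inducible HIF-1α libraries and 775.7 and 846.8 CPM in the wild-type libraries (0.24 ± 0.21, adjusted p = 0.596). Rpl4, whose loop lines the exit tunnel, was at 581.8 and 869.8 CPM in the inducible HIF-1α libraries and 597.8 and 593.6 CPM in the wild-type libraries (0.29 ± 0.24). Rps3a1 was at 530.9 and 759.3 CPM in the inducible HIF-1α libraries and 605 and 630.7 CPM in the wild-type libraries (0.06 ± 0.23). All 3 overlapped between the genotypes, and in each the inducible HIF-1α replicate 2 was the highest library. The P-stalk, which recruits elongation factors, was represented by Rplp0, Rplp1 and Rplp2, with a median fold change of 0.39 and no overlap for Rplp0 and Rplp1. Rplp0 was at 631.8 and 953 CPM in the inducible HIF-1α libraries and 579.1 and 561.5 CPM in the wild-type libraries (0.47 ± 0.24, adjusted p = 0.373).

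Members whose human orthologs are linked to Diamond-Blackfan anaemia or MDS were all above 0, as were 81 of all 86 tested members. The 15 genes had a median log2 fold change of 0.37, against 0.40 over all tested members. Of the 15, 10 did not overlap between the genotypes (background 24.6%, and 65.1% of all tested members). Rps14 (GeneID 20044; chr18:60774596-60778546) was at 434.3 and 297.6 CPM in the inducible HIF-1α libraries, against 284.1 and 149.5 CPM in the wild-type libraries (0.76 ± 0.34, adjusted p = 0.321). Its groups are separated by less than the distance between the libraries of either genotype. Rps19, the gene most often affected in Diamond-Blackfan anaemia, was at 95 and 119.7 CPM in the inducible HIF-1α libraries and 87.8 and 77.2 CPM in the wild-type libraries (0.38 ± 0.20, adjusted p = 0.394).

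Rps24 (GeneID 20088; chr14:24490678-24496960) was at 350.2 and 336.4 CPM in the inducible HIF-1α libraries and 267.3 and 131.7 CPM in the wild-type libraries (0.78 ± 0.33, adjusted p = 0.291). Rpl26 was at 121.5 and 132.7 CPM in the inducible HIF-1α libraries and 90.5 and 80.5 CPM in the wild-type libraries (0.57 ± 0.18, adjusted p = 0.197), but the row Gm15772 holds the same count in each of the 4 libraries, so the counts of the 2 rows cannot be told apart. The Mdm2-binding Rpl11 was at 96.2 and 145.6 CPM in the inducible HIF-1α libraries and 105.4 and 87.2 CPM in the wild-type libraries (0.33 ± 0.25, adjusted p = 0.54) and overlapped. Rps26, Rps7, Rpl15, Rpl27 and Rps10 did not overlap, with fold changes of 0.70, 0.42, 0.37, 0.36 and 0.23. Rps29, Rps27 and Rpl35a, like Rpl5 and Rpl11, overlapped, with fold changes of 0.34, 0.21 and 0.14.

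Most members moved the same way between the replicates of a genotype, but by differing amounts. In the inducible HIF-1α pair, replicate 1 minus replicate 2 had a median of -0.18 and an SD of 0.317 over the 86 members on the log2 CPM scale, from -1.22 to 0.71. It was above 0 for 23 members and below 0 for 63. In the wild-type pair the same difference had a median of 0.29 and an SD of 0.334, from -0.56 to 1.06, with 71 above 0 and 15 below. Over all tested genes the medians of these differences were -0.0027 and -0.0055. For comparison, the genotype fold change was above 0 for 81 of the 86 members, with a median of 0.40. When members were ordered by the mean of the 2 differences, Rps2, Rpl27a, Rps12, Rpl36a, Rpl23 and Rpl41 stood at the low end, being higher in replicate 2 of each genotype. Rps29, Rps14, Rps27l and Rps24 stood at the high end, being higher in replicate 1 of each. Across the 86 members the differences of the 2 pairs had a Pearson correlation of 0.734, and across all 14043 tested genes of 0.0774. The points are genes of the same 4 libraries and are not independent, so this is a description. What sets the order was not tested; the labels give no batch that ties replicates of the same number together.

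**Figure D3:**
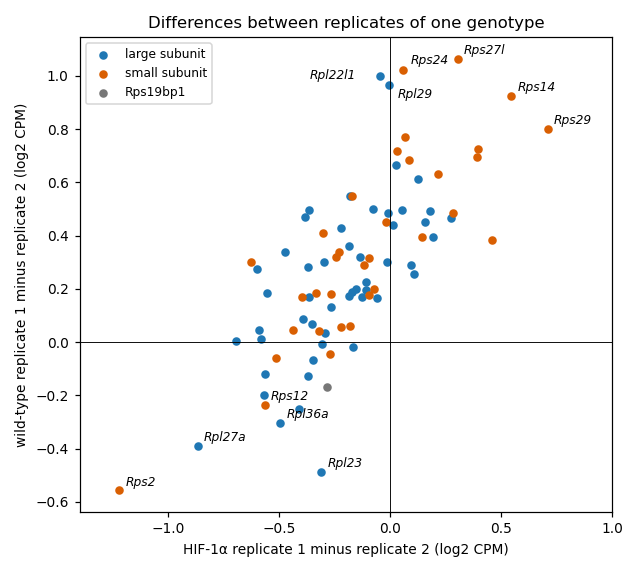
Replicate 1 minus replicate 2 in log2 CPM for each tested member, in the inducible HIF-1α pair (horizontal axis) and in the wild-type pair (vertical axis), coloured by subunit. Points run from Rps2 at the lower left (-1.22 and -0.56) to Rps29 and Rps14 at the upper right (0.71 and 0.55 on the horizontal axis), so the points rise along the diagonal, with medians of -0.18 and 0.29.

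Gene length, intronic snoRNA genes and shared sequence, which the selection did not use, gave medians between 0.35 and 0.44. The 42 genes with a coding sequence of 450 bases or more had a median log2 fold change of 0.44, and 33 of them did not overlap (background 24.6%, here and for the other groups of members in this paragraph, and 65.1% of all tested members). The 42 shorter genes had a median of 0.35, and 22 did not overlap. Many ribosomal protein genes carry small nucleolar RNA (snoRNA) genes in their introns, which guide the modification of ribosomal RNA. The 30 members with an annotated snoRNA gene within their bounds had a median of 0.43 (18 not overlapping), and the 56 without had 0.39 (38 not overlapping). Counts of this family can be shared with near-identical copies elsewhere in the genome. For 52 members, 40% or more of the 50-base windows of the transcript also occurred in transcripts of other genes, such as 92.1% of the windows of Rpl10 in the pseudogene Rpl10-ps3. These members had a median fold change of 0.42 (36 not overlapping), and the 32 with fewer shared windows had 0.37 (19 not overlapping).

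Levels per kilobase of coding sequence (CPM per kb) placed 9 of the same canonical genes among the top 10 of both genotypes. Further down, ranks moved more, with Rpl23 at rank 46 in the inducible HIF-1α means and rank 33 in the wild-type means. The median over the 77 genes was 298.5 CPM per kb in the inducible HIF-1α libraries and 229.1 CPM per kb in the wild-type libraries. Rpl39, a small protein of the exit tunnel, was at 1567 and 1383 CPM per kb in the inducible HIF-1α libraries and 1495 and 1062 CPM per kb in the wild-type libraries. Rpl41 was at 1035 and 1533 CPM per kb in the inducible HIF-1α libraries and 1246 and 1430 CPM per kb in the wild-type libraries, and Rps27a, which is made as a fusion to ubiquitin, at 945.1 and 1247 CPM per kb in the inducible HIF-1α libraries and 986.6 and 876.8 CPM per kb in the wild-type libraries. Each of these 3 genes overlapped between the genotypes. Rpl39 and Rpl41 also overlapped with each other in both genotypes, and Rps27a lay below both of them in every library. At the low end stood Rpl29, with 32.1 and 32.3 CPM per kb in the inducible HIF-1α libraries and 23.9 and 12.2 CPM per kb in the wild-type libraries, and above it Rpl36, with 65.7 and 74.0 CPM per kb in the inducible HIF-1α libraries and 50.2 and 44.1 CPM per kb in the wild-type libraries. The top gene lay 45.8-fold above the bottom gene in the inducible HIF-1α means and 74.2-fold in the wild-type means. The divisor was the coding sequence alone, which is 75 of 437 transcript bases in Rpl41 and 153 of 612 in Rpl39. Reads from untranslated regions, where counted, raise the level of such genes, so this order is not one of transcript abundance. How far this, and reads lost or shared through copies of these genes, enter this range was not tested.

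**Figure D4:**
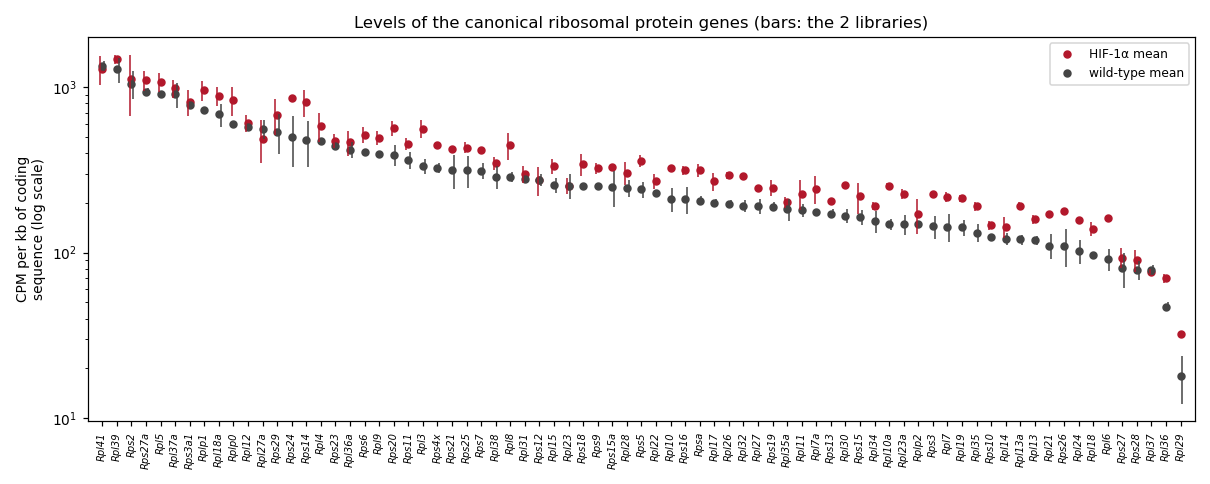
Mean CPM per kb of coding sequence (log scale) of 75 canonical genes in the inducible HIF-1α libraries (red) and the wild-type libraries (grey), ordered by the wild-type mean; bars join the 2 libraries of a genotype. Levels ran from above 1000 CPM per kb for Rpl39 and Rpl41 to 32.2 (inducible HIF-1α) and 18.0 (wild type) for Rpl29, and the red point lay above the grey one for 71 of the 75 genes drawn.

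Paralogs and retrogenes were compared with their parent gene within each library. The tissue-restricted copies Rpl3l, of heart and skeletal muscle, and Rpl10l and Rpl39l, of the testis, had 0 counts in all 4 libraries, where 3 counts correspond to between 0.109 and 0.135 CPM of the unscaled totals. With 9 pairs compared, no pair could pass, since 2 libraries against 2 cannot give an exact permutation p below 0.333 (adjusted over the pairs, p = 0.6 or 0.667). The ratios to the parent did not overlap between the genotypes for Rps27l, Rps27rt, Rps4l, Rpl32l and Rpl7l1. The counts of Rps27l were 48.6% and 51.7% of those of Rps27 in the inducible HIF-1α libraries, against 33.5% and 26.0% in the wild-type libraries. This was a log2 difference of 0.76 (exact permutation p = 0.333).

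The coding sequences of the Rps27 group show which of these counts can be told apart. The first 120 bases of the coding sequence are given below (GENCODE M21 transcripts), with bases of Rps27l that differ from Rps27 in capitals, 28 in this stretch.
Rps27 (gene at chr3:90212667-90213648): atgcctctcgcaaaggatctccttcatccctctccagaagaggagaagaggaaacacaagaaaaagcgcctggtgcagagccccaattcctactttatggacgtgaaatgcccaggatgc
Rps27rt (gene at chr9:114982366-114982739): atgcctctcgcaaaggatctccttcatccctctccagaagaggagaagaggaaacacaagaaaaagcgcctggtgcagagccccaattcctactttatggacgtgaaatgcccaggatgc
Rps27l (gene at chr9:66944624-66949522): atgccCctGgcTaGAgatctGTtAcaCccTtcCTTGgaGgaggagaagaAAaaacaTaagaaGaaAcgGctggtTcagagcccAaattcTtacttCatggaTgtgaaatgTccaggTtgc
Over the whole 252 bases Rps27l differed from Rps27 at 60, and the retrogene Rps27rt at 0. Rps27rt had 684 and 539 counts in the inducible HIF-1α libraries and 664 and 325 in the wild-type libraries, 97.0% to 99.3% of the counts of Rps27 in every library, so the counts of these 2 genes cannot be told apart. Even so, this ratio did not overlap between the genotypes, at 99.3% and 99.1% in the inducible HIF-1α libraries and 99.0% and 97.0% in the wild-type libraries.

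The ratios of Rpl32l and Rpl7l1 also did not overlap between the genotypes, in opposite directions. Rpl32l stood at 28.3% and 29.9% of Rpl32 in the inducible HIF-1α libraries and at 26.3% and 19.8% in the wild-type libraries. Rpl7l1, a diverged copy of Rpl7, stood at 31.5% and 31.1% of Rpl7 in the inducible HIF-1α libraries and at 33.0% and 48.9% in the wild-type libraries. The row of Rps4l, a pseudogene in RefSeq, held 0.305% and 0.29% of the counts of Rps4x in the inducible HIF-1α libraries and 0.841% and 0.462% in the wild-type libraries, a log2 difference of -1.07 that rests on 24 to 62 counts of Rps4l in a library. Among the 9 pairs, Rpl22l1 alone stood above its parent, at 275.2% and 229.6% of Rpl22 in the inducible HIF-1α libraries and 270.1% and 134.5% in the wild-type libraries, and these values overlapped. So did Rpl36al, at 37.0% and 24.0% of Rpl36a in the inducible HIF-1α libraries and 26.7% and 14.1% in the wild-type libraries, and Rps23rg1, at 18.7% and 14.0% of Rps23 in the inducible HIF-1α libraries and 14.9% and 10.9% in the wild-type libraries. Rpl37rt followed Rpl37 at 93.2% and 90.0% in the inducible HIF-1α libraries and 89.2% and 91.1% in the wild-type libraries.

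**Figure D5:**
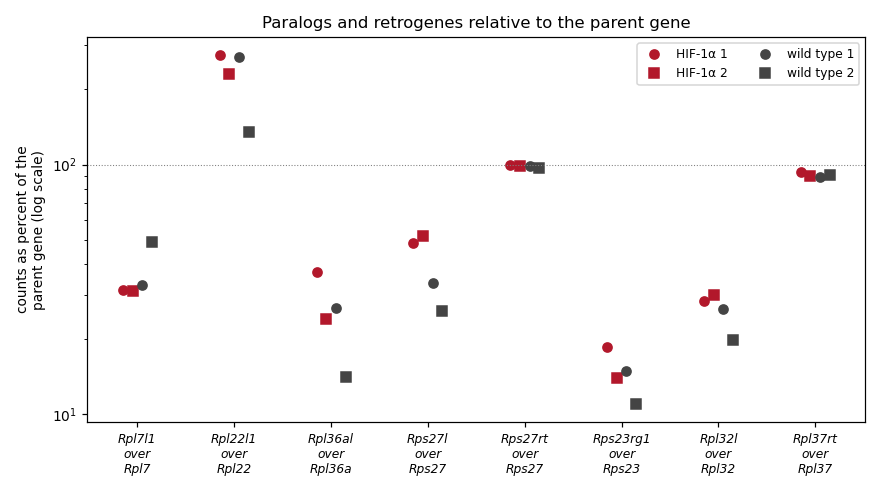
Counts of 8 paralogs and retrogenes as a percent of the parent gene's counts (log scale) in the inducible HIF-1α libraries (red) and the wild-type libraries (grey), with circles for replicate 1 and squares for replicate 2; Rps4l is left out of the plot. Rps27l over Rps27 shows a gap between 48.6% and 51.7% in the inducible HIF-1α libraries and 33.5% and 26.0% in the wild-type libraries, and Rps27rt lies on the 100% line in all 4 libraries.

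The genes around the family were counted in lists of translation and ribosome synthesis genes, 112 genes in all, and none was called in either direction (backgrounds 0.114% and 1%). At an unadjusted p under 0.05 there were 20 of them, all higher (background 5.44%). Without inducible HIF-1α replicate 1, 39 were called higher and 0 lower, and without inducible HIF-1α replicate 2, 15 were called higher and 1 lower (backgrounds as for the members). DESeq2 called 4 higher (background 1.22%). Fau, which encodes small subunit protein eS30 fused to a ubiquitin-like protein, was at 31.7 and 37.2 CPM in the inducible HIF-1α libraries and 24.7 and 26.0 CPM in the wild-type libraries (0.44 ± 0.21, adjusted p = 0.347). Rack1, a scaffold on the small subunit, had a fold change of 0.36 and did not overlap. Other mRNAs with a TOP tract had a median of 0.34, with 13 of 13 above 0 and 7 not overlapping (background 24.6%). The splicing factor Hnrnpa1 was at 1744 and 1644 CPM in the inducible HIF-1α libraries and 1065 and 995.7 CPM in the wild-type libraries (0.72 ± 0.19, adjusted p = 0.14). The elongation factor subunit Eef1g had 0.67, and Eif3e, a subunit of initiation factor eIF3, 0.42.

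Ribosome assembly factors had a median of 0.35. Of 45 genes, 43 were above 0 (background 50.1%), 37 did not overlap in the higher direction and 1 in the lower (backgrounds 24.6% and 28.2%, as for the lists that follow). Nob1, the nuclease that completes the end of small subunit ribosomal RNA, was at 36.5 and 36.9 CPM in the inducible HIF-1α libraries and 22 and 20.5 CPM in the wild-type libraries (0.79 ± 0.20, adjusted p = 0.138). The nucleolar GTPase Gnl3 had 0.69 and the RNA helicase Ddx21 0.55, both without overlap. Initiation factors had a median of 0.23, with 17 of 22 above 0, 12 not overlapping in the higher direction and 1 in the lower. Eif2s1, the eIF2 subunit that stress kinases phosphorylate, was at 99.7 and 97.5 CPM in the inducible HIF-1α libraries and 68.6 and 59.0 CPM in the wild-type libraries (0.63 ± 0.18, adjusted p = 0.176). Eif2s3x had 0.56 and Eif3j1 0.54.

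RNA polymerase I genes, for the enzyme that transcribes ribosomal RNA, had a median of 0.16, with 11 of 16 above 0, 7 not overlapping in the higher direction and 2 in the lower (backgrounds 24.6% and 28.2%). Among them Twistnb, a polymerase I subunit, was at 97.0 and 104.8 CPM in the inducible HIF-1α libraries and 65.1 and 57.2 CPM in the wild-type libraries (0.72 ± 0.18, adjusted p = 0.134). Polr1c had 0.81 and Nolc1 0.43. The list of mTOR, S6 kinase and LARP1 genes, which also holds Myc, a driver of ribosome synthesis, had a median of 0.29 with 12 of 13 above 0, 10 not overlapping in the higher direction and 1 in the lower (same backgrounds). Myc was at 114.9 and 131.2 CPM in the inducible HIF-1α libraries and 71.7 and 78.9 CPM in the wild-type libraries (0.71 ± 0.18, adjusted p = 0.138). Larp4, an mRNA-stabilising relative of LARP1, had 0.44. Ddit4, a known HIF-1 target that restrains mTORC1, was at 3.72 and 4.08 CPM in the inducible HIF-1α libraries and 2.76 and 1.62 CPM in the wild-type libraries (0.83 ± 0.46, adjusted p = 0.414).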

How the data were processed

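The deposited table held raw counts per Entrez gene for 4 libraries. TopHat, edgeR, bcl2fastq and CASAVA 1.8 are listed as tools, and mm10 as build, per the submitters' processing notes. How reads were counted (tool, annotation, strand, multi-mapped reads) was not given in the sources used here, so reads of near-identical copies may have been split, lost or counted more than once. Symbols and coordinates were looked up by Entrez identifier in RefSeq's gene table for GRCm38.p6 (mm10), where 81 identifiers were absent. Counts were tested in R 4.3.3 with edgeR 4.0.16 (filterByExpr with a minimum count of 10, TMM, quasi-likelihood F test, no block, all 4 libraries), with Benjamini-Hochberg adjustment over all 14043 tested genes and a threshold of 0.05. The procedure was checked on simulated data. Its changes were larger than those of the members, and its spread was smaller than in the inducible HIF-1α pair. The check therefore says nothing on changes as small as those of the members. Each SE was obtained as the absolute log2 fold change over the square root of its F statistic. Replicate pairs differed by a chi-square per degree of freedom of 119 (inducible HIF-1α) and 23.3 (wild type), so no library repeated another. Shares, subunit ratios and paralog ratios were tested over libraries by exact permutation. Coding lengths and shared 50-base windows of the members came from GENCODE M21 protein-coding transcripts. For Rpl32l and Rpl37rt no protein-coding transcript of their own was found there, so they have no such values. DESeq2 1.42.0 and limma 3.58.1 (voom), other scalings and filters, a replicate block, identical rows counted once and each library left out were the alternatives. The genes named were the 6 highest and 6 lowest fold changes, the 5 most abundant members, the paralog pairs, the anaemia and MDS genes, the untested members, and 3 genes per related list by smallest p; Rpl10a, Rpl3, Rplp1, Rplp2, Rpl39, Rps27a and Rpl36 were named after their values were seen. Members and lists were chosen with earlier results of these data known. The pairs with Rpl32l and Rpl37rt were added after the table was seen. A few genes that these rules take are not reported here by name, although they enter the counts, sums and medians.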

Additional observations from a re-analysis of the deposited data

How the results depend on the processing

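Under the 10 alternatives that kept all 4 libraries, the median log2 fold change of the ribosomal protein genes stayed between 0.38 and 0.48. It differed from the main value of 0.40 by less than the spread between replicates (pooled SD of the library medians, 0.16). Among all genes, 16 were called higher and 141 lower, and these numbers moved to 172 and 799 with DESeq2, 119 and 628 with no filter on low counts, 9 and 69 when every library had to reach 1 CPM, 34 and 347 with the replicate block, and 85 lower with total count scaling. Calls among the members moved to 4 higher with DESeq2 and 1 higher without the filter, and among the 112 related genes to 4 and 1 higher. The log2 difference of the large to small subunit ratio, 0.03, was -0.054 without the 5 most abundant members and -0.025 as the difference of the subunit medians. The causes were not tested.

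Leaving out each library in turn gave 0 to 1798 genes called higher and 0 to 2871 lower, 0 to 53 members higher and 0 to 2 lower, and 0 to 39 related genes higher and 0 to 1 lower. Leaving out a wild-type library left 0 members called, and the lone library was assumed to vary like the remaining pair. The median was 0.31 to 0.57 over all members and 0.28 to 0.64 over the small subunit.

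Among 60 named genes, 14 changed sign in at least 1 alternative, and of these Rps2, Rpl27a and Rps29 passed the test in at least 1 of them. With each library left out, log2 fold changes ran from -0.61 to 0.58 for Rps2, -0.65 to 0.18 for Rpl27a, -0.33 to 0.19 for Rpl41, -0.13 to 0.085 for Rpl37, -0.094 to 0.091 for Rpl37rt, -0.28 to 0.24 for Rps12, -0.21 to 0.26 for Rpl23, -0.18 to 0.30 for Rps3a1, -0.083 to 0.37 for Rpl36a, -0.092 to 0.63 for Rps27, -0.089 to 0.66 for Rps27rt, -0.0078 to 0.23 for Rps23, -0.064 to 0.82 for Rps29 and -0.060 to 0.39 for Rpl35a. Total count scaling gave 0.012 for Rpl41, 0.040 for Rpl37, 0.063 for Rpl37rt and 0.061 for Rps12. Upper quartile scaling gave 0.0036 for Rpl37, 0.027 for Rpl37rt and 0.029 for Rps12. TMM without the ribosomal protein genes gave 0.0073 for Rpl37rt and 0.0062 for Rps12, and no filter gave 0.0023 for Rpl37rt and 0.0012 for Rps12. Requiring 1 CPM in every library gave -0.024 for Rpl23, and limma-voom -0.0095 for Rps2.

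The replicate numbers are shared by title only. The deviations of same-numbered libraries correlated at 0.0774 over all tested genes, so the numbers were not taken as pairs. Over the 86 members alone the correlation was 0.734. With the replicate block the members had a median of 0.39 and 0 calls, and Rps2 had a log2 fold change of -0.0066.

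With 2 libraries in each group, precision is limited by the spread between libraries. Counting error adds to it for members with few counts. Rps19bp1, for example, had 92 and 116 counts in the inducible HIF-1α libraries and 98 and 89 in the wild-type libraries (SE 0.38). The parts of depth and of the spread between libraries were not tested.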
